A study of Rattus norvegicus with 232 samples.

Results

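Collagens are the main fibrous proteins of the extracellular matrix, and each is built from chains that wind into a triple helix. The genes described here were the rows of a table of RefSeq genes whose symbol is Col, a number, the letter a and a number. There were 44 of them among 20859 genes. By the class of protein, 11 encode fibrillar collagens, 8 collagens of basement membranes, 9 fibril-associated collagens, 6 beaded-filament (type VI) collagens, 4 transmembrane collagens and 6 others. The table was made from total RNA of rat brain, depleted of ribosomal RNA, and held 214 libraries of 197 animals from 74 strains, all of them inbred, that belong to the Hybrid Rat Diversity Panel (HRDP).

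All animals were labelled male and untreated, and no transgene or induced mutation is named for any strain. Of the strains, 30 belonged to the HXB/BXH recombinant inbred (RI) panel, derived from a cross of BN-Lx/Cub with SHR/OlaIpcv, 19 to the FXLE/LEXF RI panel, and 25 were classic inbred strains, among which the progenitors of the RI panels were counted. A strain was represented by 3 or more animals in 54 cases, by 2 in 15 and by 1 in 5. The labels give no age, and the methods of the study state a range of days for part of the strains, that of young adult rats. The methods of the study state for part of these strains that the brain was divided down the midline and that 1 side was sequenced. They also state that the HXB/BXH strains and their progenitors came from a single colony with tissue in liquid nitrogen, while classic inbred strains came from commercial breeders with tissue in RNAlater. Breeder and storage therefore cannot be told apart from that split of the panel.

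In an intact brain most tissue is neural, and collagen genes are expressed chiefly by cells at its borders and vessels. Fibroblasts of the meninges, the membranes that cover the brain, make fibrillar collagens I and III. Endothelial cells and pericytes of blood vessels make the network-forming collagen IV of the vascular basement membrane, with chains encoded by Col4a1 and Col4a2. The share of meninges and vessels in a dissected brain can differ between animals. In bulk tissue such as this, fewer cells of a type and less RNA per cell cannot be told apart.

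The promoters of Col1a2 and Col4a1 are shown because these genes, with Col1a1 and Col4a2, form the pairs whose co-variation is described below. Each sequence is the 250 bases before the annotated start, from RefSeq on the GRCr8 build and on the strand of the gene, with matches in capitals. The motifs searched, on either strand, were CCAAT, the TATA box as TATAAA and the GC box as GGGCGG.
Col1a2 (chr4:33518307-33518556, plus strand): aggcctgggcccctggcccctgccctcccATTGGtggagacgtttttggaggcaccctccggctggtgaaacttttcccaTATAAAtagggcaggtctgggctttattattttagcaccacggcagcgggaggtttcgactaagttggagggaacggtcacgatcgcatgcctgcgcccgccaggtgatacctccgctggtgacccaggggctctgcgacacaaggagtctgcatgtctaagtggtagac
Col4a1 (chr16:84885347-84885596, plus strand): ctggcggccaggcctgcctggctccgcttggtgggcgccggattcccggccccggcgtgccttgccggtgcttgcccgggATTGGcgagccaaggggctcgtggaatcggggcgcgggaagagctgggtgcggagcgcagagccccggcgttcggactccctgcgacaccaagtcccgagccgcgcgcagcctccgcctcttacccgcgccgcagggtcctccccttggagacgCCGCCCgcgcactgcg

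Col1a2 had a CCAAT match on the opposite strand 221 bases before its start and TATAAA at 170 bases. Col4a1 had a CCAAT match on the opposite strand at 170 bases and a GGGCGG match on the opposite strand at 16 bases. Col4a2 lies on the minus strand and its annotated start was separated from that of Col4a1 by 76 bases, so the stretch printed for Col4a1 also holds the start of Col4a2. Col4a5 and Col4a6 were likewise arranged head to head, on chromosome X, with 1414 bases between their starts. Of the 44 genes, 35 had a promoter in the table and 9, among them Col1a1 and Col3a1, had none. A CCAAT match was found in 31.4% of these 35 promoters and in 34.3% of all 27457 promoters, TATAAA in 11.4% and 13.1%, and GGGCGG in 54.3% and 32.4%. These are matches of letters only, and no binding was measured.

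Values are on a log2 scale set by the authors, without counts, so that the depth of each library is unknown. The number of animals and the spread between libraries limit the precision, and most animals had 1 library. Library medians ranged from 8.18 to 8.42. The 8 neuronal markers had mean values from 11.9 to 15.4, which was the check of the labelled tissue. Where a strain had several libraries under the same replicate number, these were taken as repeats of 1 animal and their mean was used. Where the labels do not say that animals came from separate litters, p-values measure the spread between the animals as sampled. In 7 animals the mean of 10 liver markers was over 10, with 17.3 as the highest value, against a highest value of 9.93 in the others. The effect of leaving these animals out is given with the strain effect.

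To see which collagen genes differ by genetic background, the variation of each was divided into a part between and a part within strains. Strain differences were found for most collagen genes. Col3a1, the chain of collagen III, and Col12a1, a fibril-associated collagen, were at the top in this table. An earlier version of the table, with fewer strains, gave another order, which is described with the processing. By the moderated F-test of limma over 69 strains with 2 or more animals (192 animals), 32 of the 44 collagen genes passed a false discovery rate (FDR) of 5% after Benjamini-Hochberg adjustment, and 36.8% of all genes did so. R2, the between-strain sum of squares as a share of the total, had a median of 0.504 over the collagen genes and 0.434 over all genes, and 0.356 would be expected with no strain effect. It was above the median of all genes for 37 of the 44 genes. Some genes that did not pass were of low level, namely Col10a1 (mean 1.64), Col6a4 (2.22), Col6a5 (3.34) and Col17a1 (3.63). The median of gene means in the table was 8.32. For these genes the lack of a call does not show that strain has no effect.

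**Figure D1:**
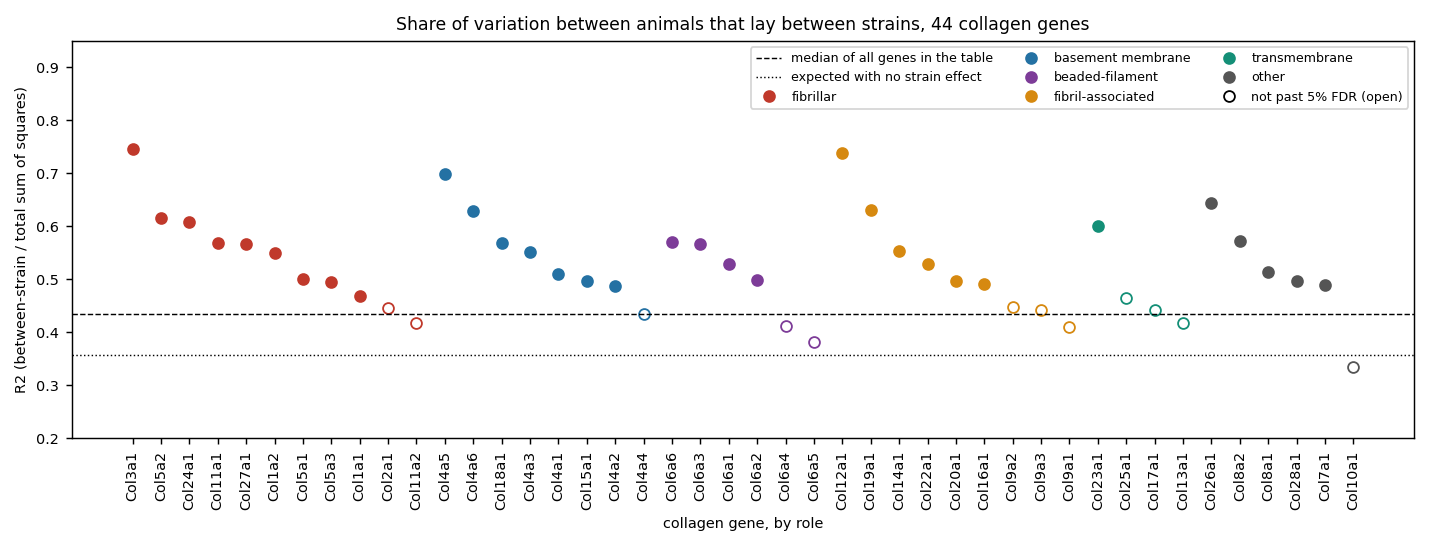
R2 over 69 strains (vertical axis, no unit, starting at 0.2) for each of the 44 collagen genes, grouped and coloured by class. Filled points passed 5% FDR in the limma F-test and open points did not. The dashed line is the median of all genes (0.434) and the dotted line the value expected with no strain effect (0.356). Col3a1 (0.747) and Col12a1 (0.737) stand highest, and Col10a1 (0.334) lowest.

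Among the fibrillar collagens, 9 of 11 passed. Over the 192 animals Col3a1 (rn6, chr9:52023295-52059217) ranged from 9.90 over a median of 10.74 to 11.51. Its strain means ran from 10.24 ± 0.020 in LEXF10A/Stm to 11.30 ± 0.18 in BXH11/Cub (SD, n = 3 each), a span of 2.08-fold, and the F-test gave R2 = 0.747 with an adjusted p of 5.8e-15. The lowest and highest strain did not overlap, but such extremes of many strains were picked from the data and are a description.

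Col1a1 and Col1a2, which encode both chains of collagen I, spanned more than Col3a1 yet repeated less well within strains. Col1a2 (rn6, chr4:31533629-31569673) ranged from 10.09 over a median of 11.05 to 12.02, with strain means of 10.48 ± 0.19 in HXB25/Ipcv and 11.64 ± 0.27 in HXB1/Ipcv (SD, n = 3 each), and had R2 = 0.549 with an adjusted p of 0.000266 in the limma F-test. Col1a1 (rn6, chr10:82745801-82762789) ranged from 9.50 over 10.46 to 11.56 and had R2 = 0.467 with an adjusted p of 0.0276 in the same test. The SD within strains was 0.37 for Col1a1, 0.30 for Col1a2 and 0.19 for Col3a1.

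Col5a2, whose product joins collagen I in mixed fibrils, had R2 = 0.616 and Col24a1, a minor fibrillar collagen, R2 = 0.608. The fibrillar genes that did not pass were Col2a1, the cartilage collagen (adjusted p = 0.068 in the limma F-test), and Col11a2 (adjusted p = 0.150). When the mean of 28 meningeal fibroblast markers entered the fit as a covariate, 29 of the 44 genes and 40% of all genes passed. Col1a1 and Col1a2 lost the call (adjusted p of 0.544 and 0.156 by limma), whereas Col3a1 kept it with 2.4e-12.

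Of the basement membrane collagens, 7 of 8 passed. The most strongly strain-bound were Col4a5 (R2 = 0.698) and its neighbour Col4a6 (R2 = 0.629), which encode X-linked chains of a collagen IV network. Col4a5 was lowest in BN-Lx/Cub (10.13 ± 0.14) and highest in HXB1/Ipcv (10.78 ± 0.14, SD, n = 3 each). Col4a1 (rn6, chr16:83522162-83632153) and Col4a2 had lower R2, 0.509 and 0.486, with adjusted p of 0.00402 and 0.0130 in the limma F-test. Over the animals Col4a1 ranged from 9.31 over a median of 10.26 to 10.97 and Col4a2 from 9.47 over 10.39 to 11.05. Col18a1, which carries the endostatin domain, passed with R2 = 0.569. Col4a4 did not pass (adjusted p = 0.101). Col4a3 and Col4a4 overlap in rn6 on opposite strands, whereas in GRCr8 their annotated starts lie head to head. Whether strand was used when the table was counted is not given in the sources used here.

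In the remaining classes 6 of 9 fibril-associated, 4 of 6 beaded-filament, 1 of 4 transmembrane and 5 of 6 other collagens passed. Col12a1 ran from 9.84 over 10.30 to 10.94 over animals, with strain means of 10.00 ± 0.16 in HXB25/Ipcv (SD, n = 3) and 10.81 ± 0.18 in SHRSP/A3NCrl (SD, n = 2, its animals 2 and 3). SHRSP/A3NCrl was among the strains doubted in earlier results, through its animal 1, which did not enter. Col19a1, a fibril-associated collagen made by neurons, had R2 = 0.631, and its extremes were HXB5/Ipcv (10.02 ± 0.081) and HXB25/Ipcv (10.51 ± 0.080, SD, n = 3 each). HXB25/Ipcv was thus lowest of all strains for Col12a1 and Col1a2 and highest for Col19a1. Col26a1 had R2 = 0.643. Of the transmembrane collagens, only Col23a1 passed (R2 = 0.600), and Col25a1, a collagen of neurons found in amyloid plaques, had an adjusted p of 0.055 in the limma F-test.

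The strain HXB1/Ipcv was the highest of 69 strains for 15 of the 44 genes, with LEXF10A/Stm the lowest for 7 and BN-Lx/Cub for 6. HXB1/Ipcv ranked 17 of 69 from the top on the meningeal marker mean, LEXF10A/Stm 63 and BN-Lx/Cub 58. On the score of the first axis of variation, defined with the co-variation below, the same strains ranked 3, 68 and 69. The part of either measure in these extremes was not tested.

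The HXB/BXH panel was also fitted alone, since its 30 strains share breeder and progenitors. In 88 animals 23 of the 44 genes passed 5% FDR by limma against 19.1% of all genes, and each of the 23 had also passed over all strains. Col3a1 again had the highest R2 (0.760), followed by Col19a1 (0.728) and Col12a1 (0.660). Col1a1 did not pass in this panel (R2 = 0.442, adjusted p = 0.138), while Col1a2 did (R2 = 0.560, adjusted p = 0.00482). Without replicate 1, 2 or 3 the count was 6, 12 and 5, against 8.3%, 9.12% and 8.2% of all genes. Over all strains it was 13, 18 and 29, with 15.7%, 14.9% and 29.3% of all genes passing.

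Sequencing batch was tested within strains, and an animal with several libraries entered by its first in batch order. Its other libraries, described below as repeats, therefore did not enter the fits with batch. By limma 0 of the 44 genes passed 5% FDR for batch, against 1.19% of all genes, and 6 had an unadjusted p under 0.05, against 15.4% of all genes. Those 6 were Col16a1, Col9a2, Col4a2, Col18a1, Col5a3 and Col6a2. The count of 0 does not show that batch left these genes unmoved. With batch as a covariate 41 of the 44 genes and 58.6% of all genes passed for strain. Without the 7 animals with liver markers 33 genes and 34% of all genes passed.

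The next comparison set the progenitors of the HXB/BXH panel against each other, BN-Lx/Cub with 3 animals and SHR/OlaIpcv, the spontaneously hypertensive rat, with 2. Collagen genes that differed were all lower in BN-Lx/Cub. By the limma contrast 6 of the 44 genes were lower at 5% FDR, against 1.87% of all genes, and 0 were higher, against 2.63%. By sign alone 37 of the 44 were lower, as were 53.9% of all genes.

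Col3a1 was 9.90, 10.51 and 10.54 in the BN-Lx/Cub animals and 10.90 and 11.43 in the SHR/OlaIpcv animals. The groups did not overlap, and the difference was -0.84 (SE 0.17, adjusted p = 0.00027, limma). Col6a3, the largest chain of collagen VI, was 8.77, 9.23 and 9.07 against 9.61 and 9.91, a difference of -0.74 (SE 0.19, adjusted p = 0.0107). In both genes the first BN-Lx/Cub animal was the lowest and SHR/OlaIpcv animal 4 the highest.

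Col12a1 was 9.84, 10.13 and 10.11 in BN-Lx/Cub and 10.55 and 10.75 in SHR/OlaIpcv, a difference of -0.63 (SE 0.11, adjusted p = 1.2e-05, limma). Col4a5 fell by 0.61 (SE 0.11, adjusted p = 3.4e-05) and Col4a6 by 0.66 (SE 0.15, adjusted p = 0.00191), so both of these neighbouring genes changed. Col26a1, at 4.84, 5.18 and 5.02 against 5.67 and 6.04, differed by -0.84 (SE 0.18, adjusted p = 0.00056). For Col1a1 the animals overlapped, with 9.50, 10.54 and 10.18 in BN-Lx/Cub and 10.37 and 10.92 in SHR/OlaIpcv, and the difference of -0.57 (SE 0.33) had an adjusted p of 0.340 by limma. Col4a1 (-0.62, SE 0.21, adjusted p = 0.062) and Col4a2 (-0.58, SE 0.22, adjusted p = 0.102) did not pass.

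**Figure D2:**
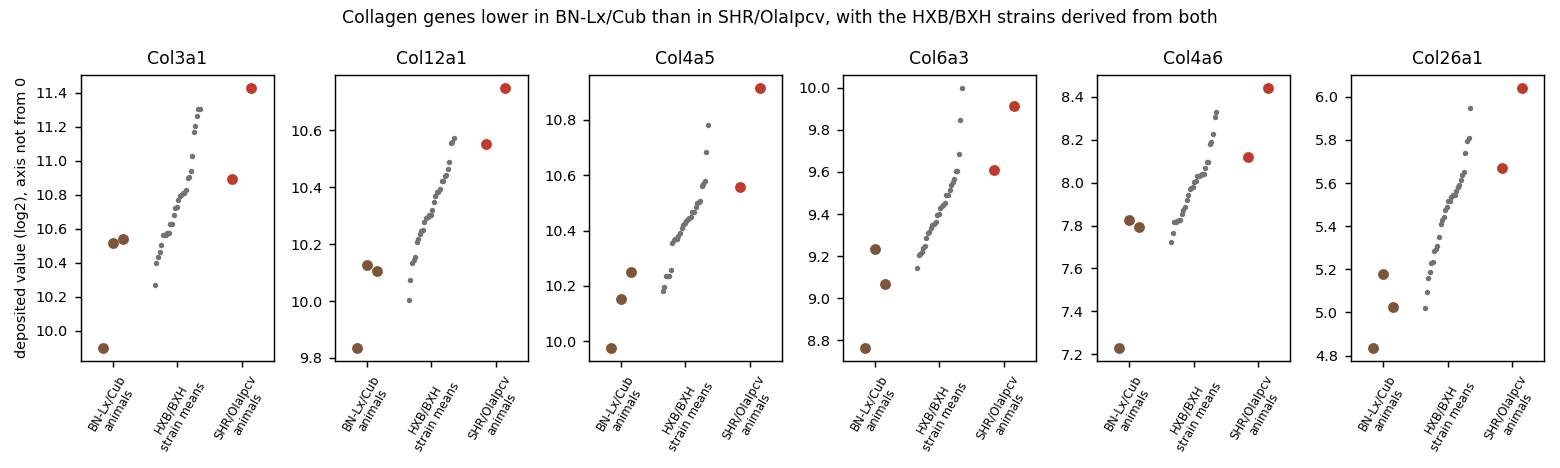
Log2 values (vertical axes, not from 0) of the 6 collagen genes that passed between the progenitors. Large points are animals of BN-Lx/Cub (brown, 3) and SHR/OlaIpcv (red, 2), and small grey points are the means of the 30 HXB/BXH strains in rising order. Each BN-Lx/Cub animal lies under both SHR/OlaIpcv animals in all 6 genes, and the strain means spread over the range between them.

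Marker lists were counted in the same contrast, in which 1.87% of all genes were lower and 2.63% higher. Of 8 red blood cell markers 6 were lower in BN-Lx/Cub and 1 higher, with list means of 10.1 to 10.4 against 11.2 to 11.3. Of 28 meningeal markers 5 were lower, namely Igfbp2, Slc6a13, Igf2, Slc47a1 and Aldh1a2, with list means of 8.44 to 8.61 against 8.62 to 8.93. Of the choroid plexus markers 1 of 10 was lower (Aqp1), of the mural cell markers 1 of 10 (Abcc9) and of the endothelial markers 0 of 10. Of 8 neuron markers 1 was higher, Snap25 of the synaptic release machinery, by 0.54 (SE 0.12, adjusted p = 0.0016, limma). The list means of liver markers (7.49 to 7.71 against 8.13 to 8.37) and of bone and cartilage markers (5.14 to 5.29 against 5.37 to 5.44) did not overlap either, though 0 of 10 passed in each. The part of these lists in the collagen differences was not tested beyond the covariates that follow. With the meningeal mean as a covariate 5 collagen genes passed, without Col6a3 (adjusted p = 0.100), against 3.14% of all genes in either direction. With the red blood cell mean 4 passed, without Col6a3 and Col4a6, against 2.35%. With the score of the first axis all 6 passed, against 4.75%.

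This contrast depended on which libraries entered. The BN-Lx/Cub libraries were of batches 3, 4 and 6, those of SHR/OlaIpcv animal 1 of batches 1 to 18 and those of animal 4 of batches 15 to 20, so the animal and the batch cannot be told apart outside shared batches. In batches 3, 4 and 6 the BN-Lx/Cub library was below that of SHR/OlaIpcv animal 1 in 4 of 4 pairs for each of the 6 genes, by a mean difference of -0.48 (from -0.96 to -0.26) for Col3a1 and -0.54 (from -0.75 to -0.44) for Col12a1. These pairs were compared after the values were seen, and both pairs of batch 3 share 1 SHR/OlaIpcv library. The pairs of batches 4 and 6 are both of BN-Lx/Cub animal 3, which thus enters each mean more than once. In the 3 batches that held both SHR/OlaIpcv animals, animal 4 differed from animal 1 by a mean of -0.128 (Col6a3, lower in 3 of 3 batches) to 0.051 (Col3a1) over the 6 genes, with -0.096 for Col4a6. With batch as a covariate each animal entered by its first library in batch order. For SHR/OlaIpcv these were of batches 1 and 15, which held no BN-Lx/Cub library. Here 9 collagen genes passed, against 7.51% of all genes in either direction. The 6 genes were among them, at adjusted p of 0.026 (Col4a6) to 0.049 (Col3a1, limma). Without SHR/OlaIpcv animal 4 only Col12a1 passed, while 0.968% of all genes did, and Col3a1 differed by -0.58 (adjusted p = 0.250, limma). In that fit the lone SHR/OlaIpcv animal is assumed to vary like the other strains. Without BN-Lx/Cub animal 2 the count was 12, against 8.52% of all genes.

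In the RI strains derived from these progenitors the values were spread between both and at times beyond. Strain means of Col3a1 ran from 10.27 over a median of 10.75 to 11.30, with 15 strains on each side of the midpoint of the progenitors. Col12a1 ran from 10.00 to 10.57 with 16 strains under and 14 above the midpoint. Col4a5 ran from 10.18 to 10.78, with 15 on each side. Col19a1 ran from 10.02 to 10.51, beyond both BN-Lx/Cub (10.17) and SHR/OlaIpcv (10.39), whose own difference of -0.22 did not pass (SE 0.11, adjusted p = 0.262, limma). Genotypes were not used here, so no allele was assigned.

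The hypertensive SHR/OlaIpcv was compared with its normotensive relative WKY/NCrl (3 animals). By the limma contrast 0 of the 44 genes passed 5% FDR, against 0.825% of all genes, and 8 had an unadjusted p under 0.05, against 8.49% of all genes. Col1a1 was 10.37 and 10.92 in SHR/OlaIpcv and 10.84, 11.56 and 10.78 in WKY/NCrl, and the difference of -0.41 (SE 0.33) had an adjusted p of 0.820. Between panels, with 1 mean per strain, 0 of the 44 genes passed for HXB/BXH against classic inbred strains (0% of all genes) and 0 for FXLE/LEXF against classic inbred strains (0% of all genes). At an unadjusted p under 0.05 there were 2 and 3 collagen genes, against 2.39% and 10.2% of all genes. These limma contrasts do not show that the groups are alike. The panel contrasts take strains as independent units and do not model their relatedness.

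The third comparison asked which collagen genes varied together. Each animal was expressed as its deviation from the mean of its strain, which removes strain differences, and strain means were examined apart. Across the 946 pairs of collagen genes the median Pearson r of the deviations was 0.286 over 192 animals, and 818 pairs were positive. The correlations across pairs are a description, since all genes share the same libraries. Permutations over strain means treat the strains as independent. Strains of an RI panel share progenitors and some classic inbred strains are substrains, and this relatedness was not modelled, so those p-values may be too small.

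**Figure D3:**
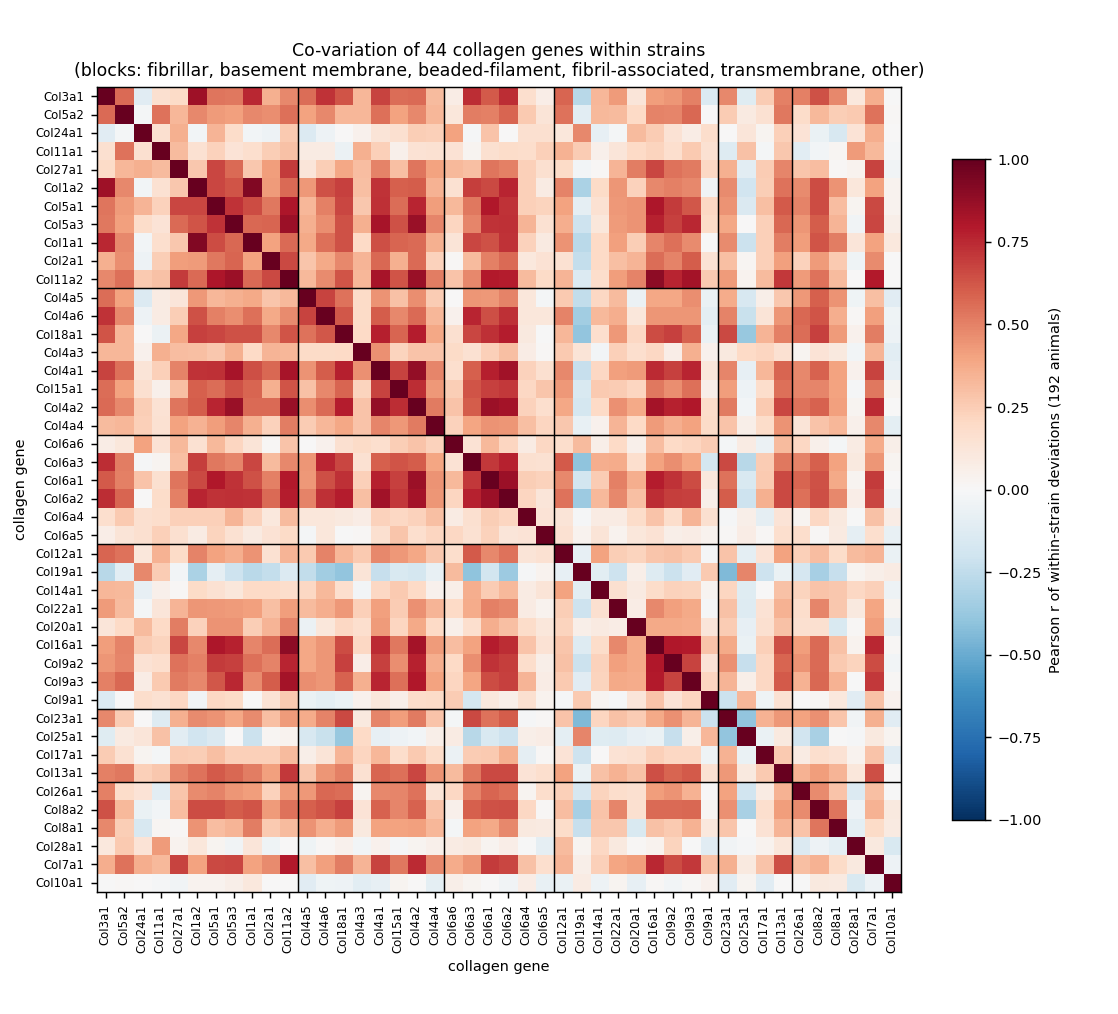
Pearson r of within-strain deviations for each pair of the 44 collagen genes (colour, from -1 in blue to 1 in red; 192 animals), with lines between classes. A block of high values joins fibrillar genes, Col4a1, Col4a2, Col18a1 and Col6a1 to Col6a3 across the class borders, and Col19a1 and Col25a1 form pale or blue bands.

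The co-variation did not follow the classes of collagen. The median r was 0.430 among fibrillar genes, 0.469 among basement membrane genes and 0.403 between the classes. By the median r with the 43 other genes, Col6a2 (0.564), Col6a1 (0.538) and Col4a2 (0.536) stood at the centre. Col19a1 (-0.137), negative with 32 of the 43 others, and Col25a1 (-0.065), negative with 26, stood at the other end. Both have known expression in neurons. Col10a1 (0.0006) and Col28a1 (0.030) were near 0, and Col24a1 (0.128) and Col11a1 (0.164) were the fibrillar genes that stood apart. Col10a1 had a mean of only 1.64, so its r near 0 does not show that it varies apart from the others.

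Of 12 pairs chosen for test, Col1a1 and Col1a2 had an r of 0.924 over deviations and 0.911 over 69 strain means, with Spearman rho of 0.927 and 0.891. The permutation p was 1e-05 in each, the smallest that 100000 resamples can give, and without the 2 most distant points r was 0.919 and 0.901. Col1a2 and Col3a1 had r of 0.849 and 0.778, and Col1a1 and Col3a1 0.753 and 0.736. Col4a1 and Col4a2, which start from the stretch of promoter printed above in opposite directions, had r of 0.877 and 0.913. The deviations of Col1a2 and Col4a1, 1 gene from each class, had r = 0.720, and the strain means 0.704. All 5 collagen pairs were positive within each of 15 batches, with within-batch r from 0.812 to 0.974 for Col1a1 and Col1a2 and from 0.211 to 0.938 for Col1a2 and Col4a1.

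**Figure D4:**
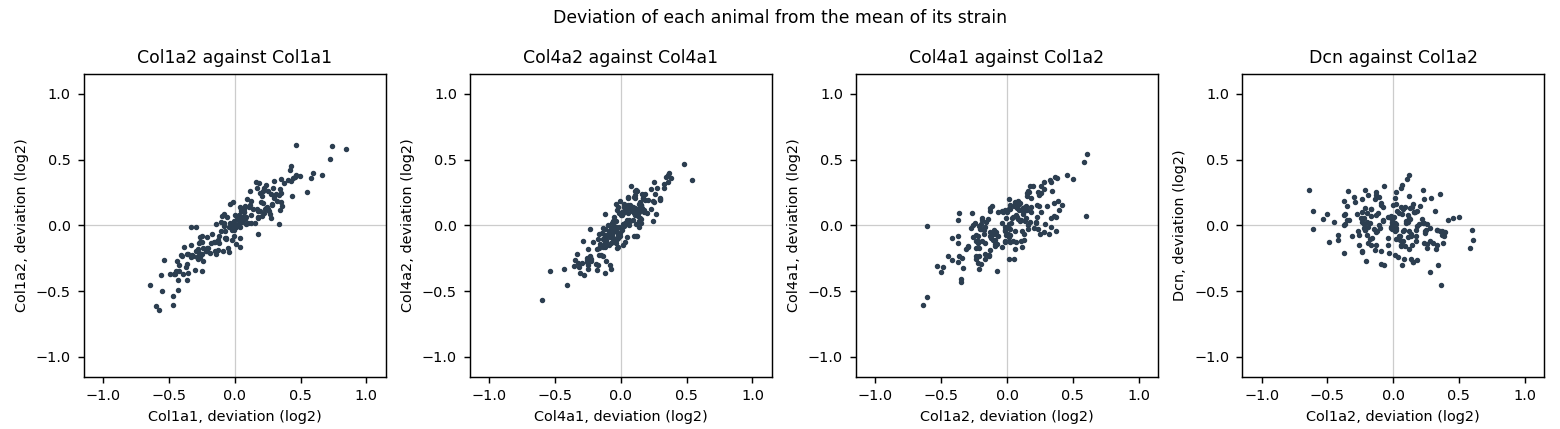
Deviation of each of 192 animals from the mean of its strain (log2 units on both axes, equal scales) for 4 pairs of genes. Col1a2 against Col1a1 (r = 0.924) and Col4a2 against Col4a1 (r = 0.877) lie along a narrow band, Col4a1 against Col1a2 is wider (r = 0.720), and Dcn against Col1a2 shows no positive relation (r = -0.178).

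Markers of other cell types were paired with the collagens in the same family of 12 pairs, with p-values adjusted over the 12. Col1a2 varied with Igf2 (r = 0.577 over deviations, 0.761 over strain means), a growth factor of meninges and choroid plexus, and with Slc6a13 (0.570 and 0.561), a transporter of leptomeningeal cells. It did not vary in the same way with Dcn, which encodes decorin, a small proteoglycan that binds collagen I fibrils and is a marker of meningeal fibroblasts. That pair had r = -0.178 over deviations (rho = -0.174, permutation p = 0.0365, adjusted p = 0.0365) and 0.055 over strain means (permutation p = 0.657), and was positive in 4 of 15 batches. Col4a1 varied with Pdgfrb of pericytes (0.792 and 0.694) and with Cldn5 of endothelial tight junctions (0.546 and 0.50). Other markers of the same cells went the other way, with r of -0.664 between Slco1a4 and the Col4 mean, -0.539 for Emcn of endothelium and -0.415 for Rgs5 of pericytes, and the medians over deviations were 0.225 for 10 endothelial and 0.289 for 10 mural cell markers. With Ttr of choroid plexus epithelium the correlations were lower, 0.204 and 0.356 for Col1a2 and 0.224 and 0.435 for Col18a1.

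Over deviations all 12 pairs passed 5% by adjusted permutation p, and over strain means 11 of 12 did. Without the 2 most distant points the pair of Col1a2 and Dcn lost its call over deviations (adjusted permutation p = 0.0555). A single axis accounted for 23.1% of the variance of the within-strain deviations of all genes that are not collagens, and 8164 genes had an absolute r over 0.5 with it. The mean deviation of Col4a1 and Col4a2 had r = 0.833 with this axis, the mean of Col1a1, Col1a2 and Col3a1 (here the fibrillar mean) 0.649, and the meningeal marker mean 0.353.

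When that axis was removed, a step added after the data were seen, 10 of the 12 pairs passed. Col1a1 and Col1a2 still had r = 0.872, Col1a2 and Col3a1 0.782, Col4a1 and Col4a2 0.676, and Col1a2 and Col4a1 0.460. The pair of Col1a2 and Dcn turned positive (r = 0.274, adjusted permutation p = 0.00196), and Col4a1 and Cldn5 fell to -0.101 (adjusted permutation p = 0.224). The nature of the axis was not tested.

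Meningeal markers followed collagens I and III more closely than Col4a1 and Col4a2, but they did not divide the classes. The fibrillar mean had r = 0.661 with the mean of the 28 meningeal markers, and the mean of Col4a1 and Col4a2 had r = 0.335. Of the single genes, Col3a1 (0.724), Col4a6 (0.705), Col6a3 (0.656) and Col1a2 (0.651) were highest with the meningeal mean. Among basement membrane genes Col4a5 (0.555) and Col18a1 (0.493) were above fibrillar Col5a1 (0.373), Col5a2 (0.340) and Col24a1 (-0.199). Over the single markers the median r was 0.429 with the fibrillar mean and 0.280 with the Col4 mean. With the axis removed all 28 markers were positive with the fibrillar mean (median 0.329), and 15 of 28 with the Col4 mean (median 0.021). The 10 choroid plexus markers behaved likewise, with 10 and 6 positive and medians of 0.289 and 0.00938. Endothelial markers had medians of 0.104 and 0.129, mural cell markers 0.098 and 0.106, and bone and cartilage markers 0.060 and 0.0136. Neuron markers had 0.154 and 0.113, pituitary and pineal markers 0.152 and 0.0375, and peripheral nerve markers 0.133 and 0.0248. Red blood cell markers had 0.047 and -0.0625, and liver markers -0.115 and -0.140. These are descriptions over genes that share libraries.

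The genes outside the family that followed the fibrillar mean most closely over the 192 animals were Hspg2 (r = 0.832), Mrc2, Fbln1, Adgra2, Slc13a3, Lamc3, Pear1, Aebp1, Ptk7 and Dchs1 (0.756). Hspg2 encodes the basement membrane proteoglycan perlecan, Mrc2 an endocytic receptor for collagen and Fbln1 the matrix protein fibulin-1. The closest to the Col4 mean were Phldb1 (0.907), Clip2, Plec, Zswim8 and Gcn1 (0.892). Plec encodes plectin, a linker of the cytoskeleton, and Clip2 a protein that binds microtubules. With the first axis each of these 5 had an r of 0.889 to 0.920. The 10 genes that followed the fibrillar mean had 0.766 (Aebp1) to 0.855 (Ptk7) with the axis. Except for Hspg2 (0.772), each of those 10 had a higher r with the axis than with the fibrillar mean. With the axis removed the fibrillar list became Hspg2 (0.685), Dab2, Mrc2, Igf2, Fbln1, Fmod, Fn1, Adgra2, Prelp and Slc13a3 (0.580), and the Col4 list Tln1 (0.682), Cspg4, Phldb1, Vwf and Notch1 (0.645). Fmod and Prelp encode collagen-binding proteoglycans, and Vwf encodes the clotting factor made by endothelium.

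The same genes varied between repeat libraries of a single animal. SHR/OlaIpcv animal 1 had 12 libraries in 12 batches and animal 4 had 6 in 6 batches. Whether they share an extraction is not given in the sources used here. Over the 12 libraries Col1a1 ran from 9.61 over a median of 10.29 to 11.29 (SD 0.51), Col1a2 from 10.27 to 11.82 (SD 0.46), Col3a1 from 10.26 to 11.40 (SD 0.33) and Col4a1 from 9.58 to 11.03 (SD 0.44). The SD of Col12a1 was 0.095 and that of Col19a1 0.091.

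**Figure D5:**
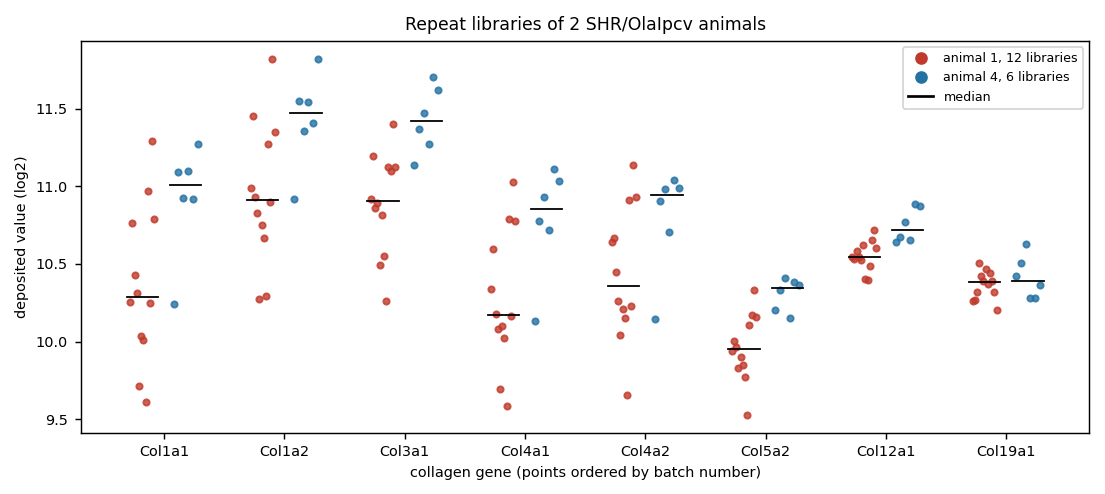
Log2 values of 8 collagen genes in the 12 libraries of SHR/OlaIpcv animal 1 (red) and the 6 libraries of animal 4 (blue), ordered by batch number within a gene, with the median as a bar. Libraries of animal 1 spread over more than 1 log2 unit in Col1a1, Col1a2, Col3a1 and Col4a1, and far less in Col12a1 and Col19a1.

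The SD between the 12 libraries of animal 1 exceeded the SD within strains for 32 of the 44 genes, among them Col1a1 (0.51 against 0.37) and Col4a1 (0.44 against 0.23). The ratio of these SDs had a median of 1.31 over the collagen genes and of 1.04 over all genes. Between the 6 libraries of animal 4 the SD was larger than within strains for 23 of the 44 genes, with a median ratio of 1.10 against 0.849 over all genes. It was 0.35 for Col4a1, and for Col1a1 it was 0.36, no larger than within strains. Across the 12 libraries Col1a1 and Col1a2 had r = 0.973, Col4a1 and Col4a2 0.977, and Col1a2 and Col4a1 0.973, while Col1a2 and Dcn had -0.453. Across the 6 libraries of animal 4 the same pairs had r of 0.976, 0.978, 0.766 and -0.063. Each repeat library was of another batch, whereas animals of a strain came from fewer batches and some shared a batch, so the SDs are not alike. These values describe repeats of 1 animal and have no test.

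Ratios between chains are given as a description, since a ratio removes a common rise and fall only where both genes move by the same amount. The ratio of Col5a2 to Col3a1, genes that lie side by side on chromosome 9 and are read toward each other (Col5a2 at rn6 chr9:52072373-52239343), had R2 = 0.718 over strains and 0.810 in the HXB/BXH panel. The ratio of Col3a1 to Col1a2 had R2 = 0.610, while that of Col1a1 to Col1a2 had 0.492 and that of Col4a2 to Col4a1 0.409. For Col12a1 to Col1a2 it was 0.487, for Col4a6 to Col4a5 0.456 and for Col4a5 to Col4a1 0.451. With no strain effect 0.356 would be expected over all strains and 0.333 in the panel. The ratio of Col12a1 to Col1a2 had an SD within strains of 0.263, against 0.118 for Col12a1 alone. Its R2 is therefore not the part of the Col12a1 strain effect that remains without a common rise and fall. Neighbours on a chromosome were added after the data were seen. There r of strain means was 0.851 for Col4a5 and Col4a6, 0.772 for Col6a1 and Col6a2, 0.658 for Col3a1 and Col5a2 and 0.493 for Col4a3 and Col4a4. The permutation p was 1e-05, the smallest possible, to 3e-05 over 69 strains. Over deviations the same pairs had r of 0.679, 0.857, 0.569 and 0.282, and means of few animals also carry variation within strains. Col9a1 and Col19a1 had -0.160 over strain means (permutation p = 0.189) and 0.264 over deviations (permutation p = 0.00574), so the sign differed between the levels.

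At the level of single transcripts, 44 RefSeq isoforms of 31 collagen genes could be followed, and 11 passed the limma F-test over strains against 13.4% of all 45922 transcripts. The isoform of Col3a1 had R2 = 0.752 and strain means that followed the gene (r = 0.997). Those of Col12a1 (0.612), Col4a5 (0.486) and Col26a1 (0.488) passed with a lower R2 than the gene. Their strain means had r of 0.751, 0.699 and 0.653 with the gene. Those of Col19a1 (0.341) and Col24a1 (0.395 and 0.315) did not pass, and had r of 0.150, 0.579 and 0.187 with the gene. The Col19a1 isoform had a mean of 5.06 against 10.28 for the gene. These isoforms followed their genes loosely, so they do not show whether the strain effect of the gene is absent from its transcripts. For Col4a6 and Col5a2 no isoform could be followed.

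Genes that make, bind or break down collagen were counted in the same fits, where 36.8% of all genes passed for strain. Of 26 genes for collagen synthesis and crosslinking 17 passed the limma F-test over strains, with Colgalt2, a collagen galactosyltransferase, highest (R2 = 0.737), then Loxl2 (0.663) and Lox (0.637), the crosslinking oxidases. Of 10 collagen receptors 7 passed, led by the integrin chain Itga11 (0.780) and the inhibitory receptor Lair1 (0.734). Of 16 other genes of basement membranes 13 passed, led by Lama3 (0.677) and the nidogen Nid1 (0.640). Of 10 proteases and inhibitors 7 passed, led by Mmp14 (0.649), a membrane-bound collagenase, and Timp1 (0.640).

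Of 9 small leucine-rich proteoglycans 8 passed, and their co-variation with collagens was divided. Over the deviations Prelp had r = 0.720 with the fibrillar mean, Fmod 0.705 and Bgn 0.638, whereas the other 6 were negative, from -0.269 for Aspn to -0.015 for Lum, with Dcn at -0.171. With the Col4 mean the same 6 ran from -0.519 for Ogn to -0.423 for Omd. With the axis removed all 9 were positive with the fibrillar mean, at a median of 0.401. In the BN-Lx/Cub contrast the counts lower by limma were 5 of 16 other basement membrane genes (Lama2, Lama3, Lama4, Lamb1 and Nid2), 2 of 26 for synthesis (Loxl2 and P4hb) and 2 of 10 for proteases and inhibitors (Mmp14 and Timp3), and 0 in any of these lists were higher, against 1.87% of all genes lower and 2.63% higher.

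Of the marker lists, 24 of 28 meningeal, 7 of 10 endothelial, 6 of 10 mural, 8 of 8 red blood cell, 3 of 10 choroid plexus and 5 of 10 bone and cartilage markers passed for strain, against the same 36.8% of all genes. The part of tissue content in the strain effect on collagens was not tested beyond the covariate given above.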

How the data were processed

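Total RNA of rat brain had been sequenced from stranded, rRNA-depleted libraries. The main values are the deposited log2 values of a table of RefSeq genes (version 7.1), scaled by the authors. For version 5 the methods name Cutadapt, Bowtie 2, HISAT2, StringTie, RSEM, removal of 1 factor of unwanted variation and a regularized log. The submitters' processing notes for the latest samples also name Bowtie2 2.4.5, HISAT2 2.2.1, StringTie 2.2.1 and RSEM 1.3.3, with no table. Which steps and genome made versions 6 and 7.1 is not given in the sources used here. The deposited annotation models (other values, exon positions of version 5 on rn6) were used for positions only.

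Strain, replicate and batch came from the labels. The batch label was used, and the title gave another number for 23 of 214 libraries and the column name for 1. Libraries of 1 animal were averaged, except in fits with batch, where an animal entered by its first library in batch order. The 73 spike-ins were left out, and limma 3.58.1 in R 4.3.3 was fitted on all 20859 genes with Benjamini-Hochberg adjustment at 0.05. Strain contrasts used all animals in 1 fit, and panels 1 mean per strain. Pairs were tested two-sided with 100000 resamples, shuffled inside strains for deviations (scipy 1.17.1, numpy 2.4.6). On simulated data the F-test called 100 of 100 genes whose between-strain SD equalled the within-strain SD and 0.0726% of 20659 unchanged genes. The contrast of the progenitors called 77 of 100 genes set apart by 4 within-strain SDs. That of HXB/BXH with classic inbred strains called 56 of 100 at 1 SD between strain means. Noise was drawn for each gene apart, without the shared axis of the real deviations.

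The collagen genes, marker lists, pathway lists and tests were chosen with earlier results of these data known. Named were the chains of collagens I, III and IV, the 8 highest R2, the largest called differences, the 10 and 5 most similar genes, and the leading genes of each list. Ranking of strains, ratios and genes singled out beyond these were chosen after their values were seen. Alternatives covered batch, replicate block, marker means, single replicates, low values, centring and table version. Tables of reconstructed features and deposited strain means were not used here.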

Additional observations from a re-analysis of the deposited data

How the results depend on the processing

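Leaving out replicate 1, 2 or 3 gave 13 to 29 of 44 collagen genes for strain (32 with all) and 5 to 12 in the HXB/BXH panel (23 with all). Fewer animals enter such fits, and in the panel replicate number goes with batch. The part of either in these counts was not tested. With the fit limited to genes with a mean over the table median of 8.32, 20 of 22 collagen genes passed for strain and 13 in the panel, against 34.9% and 14.7% of all genes over that value. For BN-Lx/Cub against SHR/OlaIpcv leaving out 1 animal gave 1 to 12 genes. The count for strain was 29 to 41 under batch, replicate block, marker mean and centring alternatives, 39 of 41 genes in the version 5 table (63.6% of all its genes) and 32 of 41 in version 6 (31.7%). With the score of the first axis as a covariate it was 36 (47% of all genes). The order of R2 differed in version 5 (45 strains, 132 animals), with Col16a1 at 0.846, Col3a1 0.823, Col5a1 0.808 and Col12a1 0.794. Col1a1 had 0.742 there, and Col11a2 (adjusted p = 7.0e-12, limma F-test) and Col2a1 (0.00081) passed. In version 6 Col12a1 (0.728) and Col3a1 (0.719) were highest, and Col11a2 and Col2a1 did not pass.

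The labels do not state what a replicate number stands for, and the numbers were treated as names. In the HXB/BXH panel, however, every animal numbered 1 had a lower batch number than every animal numbered 3. Replicate number therefore goes with batch there. Deviations of same-numbered animals of different strains had mean r of 0.00889, 0.0122 and 0.0536 for numbers 1, 2 and 3. Against other numbers the mean r was -0.00242, -0.00438 and -0.0287. Of 190 animals 115 were nearer to their own number, and whether shared batches account for this was not tested. With the replicate block 33 genes passed for strain (38.2% of all genes), 20 in the panel (19.1%), 6 between the progenitors (410 of all genes against 940 without it), 0 for SHR/OlaIpcv against WKY/NCrl, and 12 pairs.

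Directions turned only in differences that did not pass or in pairs with the first axis removed. For SHR/OlaIpcv minus WKY/NCrl, Col3a1 turned to -0.32 with batch, -0.015 with the replicate block and -0.15 without SHR/OlaIpcv animal 4, and Col4a1 to -0.21 with batch and -0.039 without that animal. Over the animals left out in turn these ran from -0.15 to 0.39 for Col3a1 and from -0.039 to 0.47 for Col4a1. For HXB/BXH minus classic inbred, Col1a1, Col1a2 and Col3a1 turned to 0.040, 0.010 and 0.0076 without the strains LE/Stm, LEW/Crl, F344/NCrl and SHRSP/A3NCrl, doubted in earlier results for liver genes, sex-linked genes or libraries nearer to another strain, and Col1a1 to 0.020 with the meningeal mean. For FXLE/LEXF minus classic inbred, Col1a1 turned to 0.0089 without those strains and to 0.085 with the meningeal mean, Col1a2 to 0.054 and Col4a1 to 0.025. With the first axis removed Col1a2 and Dcn turned to 0.274 and Col4a1 and Cldn5 to -0.101. The cause was not tested. Of the values for single genes and pairs, 596 kept direction and side of the threshold, 52 lost it, 5 gained it and 15 turned. By the batch number of the title 0 collagen genes passed for batch, against 0.216% of all genes.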

Other observations

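Of the other marker lists, 6 of 7 peripheral nerve, 4 of 8 neuronal, 2 of 5 measured pituitary and pineal and 1 of 10 liver markers passed the limma F-test for strain, against 36.8% of all genes. Of the 10 liver markers 0 were positive with the fibrillar mean once the first axis was removed (median r = -0.115).

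The values hold no counts, and no interval from sequencing depth is given. Which genome and steps made the main table is unstated, and version 5 had already been adjusted for 1 factor of unwanted variation. Marker means and the first axis are measured in the same libraries as the collagens. SHR/OlaIpcv rested on 2 animals, each averaged over many libraries, while most animals had 1 library. Dissection, extraction, library preparation and animal cannot be told apart in the deviations, and repeat libraries of 1 animal varied too. Batch was examined by the fits with batch and the r within batches, and its part in the deviations was not tested beyond these.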
